A study of Mus musculus with 30 samples.

Results

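The 10 genes described here encode the route by which myeloid receptors signal through the kinase SYK to the adaptor CARD9: Fgr, Syk, Btk, Lat2, Grap2, Vav1, Plcg2, Card9, Bcl10 and Malt1. They were chosen by name, each was matched by its annotated symbol to 1 transcript cluster, and together they make up 10 of the 19479 genes measured. TREM1 is a receptor of myeloid cells that amplifies inflammation. The groups were neutrophils, macrophages and microglia from Trem1 knockout (KO) mice, with 5, 6 and 6 arrays, and the same cells from wild-type (WT) mice, with 4, 3 and 6 arrays. All were male C57BL/6 mice aged 8 to 10 weeks, and all, WT included, had the middle cerebral artery occluded for 45 min, a model of stroke, with cells taken from the ischemic hemisphere 48 h after reperfusion. Cells were sorted with antibodies to CD45, CD11b and Ly6G: neutrophils as CD45 high and Ly6G positive, macrophages as CD45 high and Ly6G negative, and microglia as CD45 low, a gate that the labels also give as Ly6G positive. Mice without stroke were not analysed here, so every value describes a post-stroke cell. The labels call the arrays of a group biological replicates and do not say whether an array holds cells of 1 mouse or of several, nor how the Trem1 gene was disrupted.

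Many activating receptors of myeloid cells, TREM1 among them, have no kinase of their own and pair with small adaptors that carry an immunoreceptor tyrosine-based activation motif (ITAM). SRC-family kinases such as FGR phosphorylate the motif, SYK binds to it and becomes active, and SYK then acts through adaptors (LAT2, GRAP2), the exchange factor VAV1, the kinase BTK and the phospholipase PLCG2. Protein kinase C activated downstream of the phospholipase phosphorylates CARD9, which assembles with BCL10 and the paracaspase MALT1 and leads to NF-kB, the main route to cytokine genes for fungal lectin receptors and several ITAM-coupled receptors.

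Across the 6 groups these genes differed widely in how much they varied, and the ends of that range are Fgr, whose group means spanned 6.18 log2 units, and Vav1, whose group means spanned 0.38. The 250 bases before the annotated start of each are shown to set the most cell-type-dependent member beside the most uniform one. They are RefSeq sequences of GRCm38.p6, plus strand, at chr4:132973845-132974094 for Fgr and chr17:57278850-57279099 for Vav1. Capitals mark GGAAGT, a core bound by ETS-family factors such as PU.1, the main transcription factor of myeloid cells, searched on both strands:
Fgr: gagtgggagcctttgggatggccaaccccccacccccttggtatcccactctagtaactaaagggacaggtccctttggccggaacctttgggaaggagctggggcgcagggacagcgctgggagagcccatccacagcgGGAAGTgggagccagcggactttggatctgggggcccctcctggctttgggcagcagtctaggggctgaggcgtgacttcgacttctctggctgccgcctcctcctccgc
Vav1: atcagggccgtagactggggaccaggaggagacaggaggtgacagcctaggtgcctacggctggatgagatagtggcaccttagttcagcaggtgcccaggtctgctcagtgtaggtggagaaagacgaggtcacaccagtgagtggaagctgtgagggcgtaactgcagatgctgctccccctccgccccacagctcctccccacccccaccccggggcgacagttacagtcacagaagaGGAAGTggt
Each window held GGAAGT 1 time, beginning 110 bases before the start in Fgr and 9 bases before it in Vav1. Of the 8 members with a window in the RefSeq table, Card9, Fgr and Vav1 held it, and 19.7% of all 32851 windows did. In Vav1 it lay within the longer GAGGAAGT, which 2.44% of all windows held. These matches describe letters only.

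Levels are log2 intensities of the arrays, given for each array or as mean ± SD, and differences are log2 units with the standard error (SE) of a limma model (a linear model with moderated variances) fitted to all 22103 transcript clusters on the 30 arrays. To pass, a gene needed an adjusted p (Benjamini-Hochberg, over every cluster) under 0.05. Probes differ in brightness, so no gene's level is set against another gene's. The number of arrays limits the precision. The median intensity per array was 83.7 to 120, and each array's mean correlation with its own group was 0.974 to 0.988, or 0.933 to 0.962 for the WT neutrophils. Of 2015 clusters bright in every macrophage and microglia array, 5 to 24 per array in KO neutrophils, against 20 to 204 in WT neutrophils, were over 3 log2 units dimmer than their average there. Summed marker levels followed the gates. The summed log2 intensity of 11 neutrophil markers was 18.9 to 20.51 in neutrophils and at most 15.81 elsewhere. That of 11 microglia markers was 18.29 to 19.21 in microglia and at most 17.33 elsewhere. For 12 monocyte and macrophage markers it was 19.11 to 19.4 in macrophages and at most 18.48 elsewhere. The brightest markers weigh most in such a sum. P2ry13, the 1 of 11 microglia markers higher in WT neutrophils than in WT microglia, averaged 15.03 and 13.43. Csf1r, the 1 of 12 macrophage markers lower in WT macrophages than in WT microglia, averaged 15.06 and 16.35. In WT macrophages 5 of 7 dendritic cell markers passed above WT microglia and 1 below, where 37.5% of all clusters passed. The sums do not show that a gate held 1 cell type. Trem1 itself fell by 1.22 in KO neutrophils (SE 0.41, adjusted p = 0.0361, limma), and its differences were -0.49 (adjusted p = 0.998) in macrophages and -1.25 (adjusted p = 1) in microglia. Whether its probes lie in the disrupted part is not known, so these values do not test the genotype. In sorted bulk samples, fewer cells of a type and less RNA per cell cannot be told apart.

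In neutrophils, loss of TREM1 went with a higher level of the membrane adaptor gene Lat2 and of the phospholipase gene Plcg2, and with a lower level of the kinase gene Syk and of the CARD9 partner gene Bcl10. Of these 4 calls none passed with the level of broadly expressed clusters in the model, as given further on. In macrophages only Grap2 passed, about 2.55-fold lower in KO, and in microglia no member passed. In counts, 4 of 10 members passed in KO against WT neutrophils, 2 higher and 2 lower, where 19.9% of all clusters passed, 10.7% higher and 9.14% lower. The KO and WT arrays did not overlap for 3 members in neutrophils, where 11.4% of all clusters did not overlap, and for 1 member in macrophages, where 2.92% did not. In macrophages 1 of 10 passed, against 0.00452% of all clusters, a share that is Grap2 alone. In microglia 0 of 10 passed by limma, and none had an unadjusted p under 0.05, where 0% of all clusters passed and 2.92% had an unadjusted p under 0.05. The median difference of the members was -0.27 in neutrophils, -0.01 in macrophages and -0.07 in microglia, beside -0.13, 0.03 and 0 for all clusters.

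**Figure D1:**
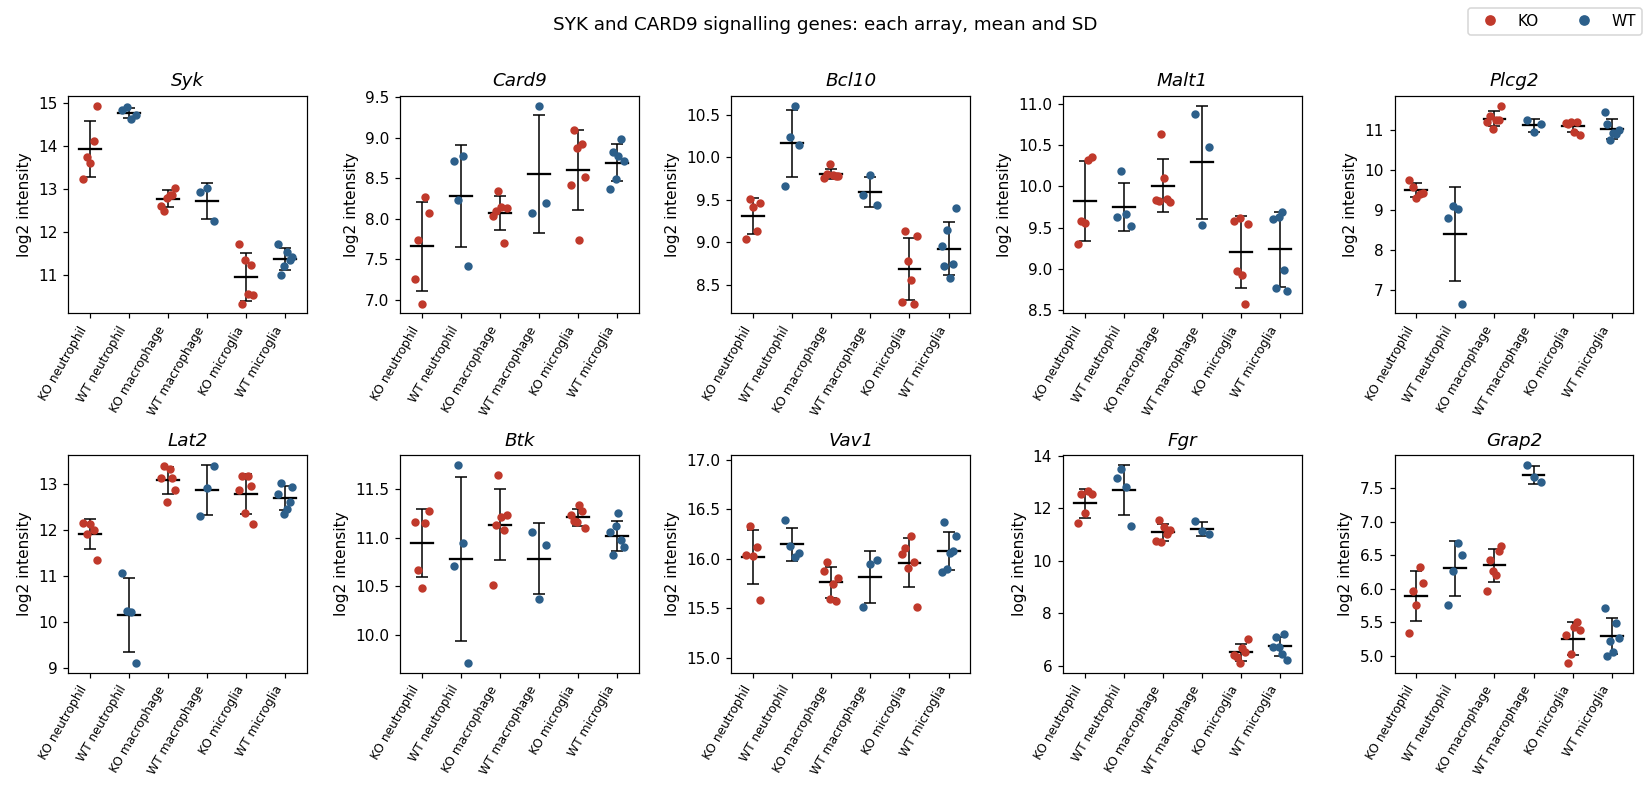
Log2 intensity (vertical axis) of each of the 10 genes in every array (points), by group, with KO in red left of WT in blue; horizontal lines are means and bars are SD, and each panel has its own scale. Lat2 and Plcg2 are lower in neutrophils than elsewhere and lowest in WT neutrophils, Fgr is near 6.52 and 6.74 in KO and WT microglia, and Grap2 stands out in the 3 WT macrophage arrays.

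**Figure D2:**
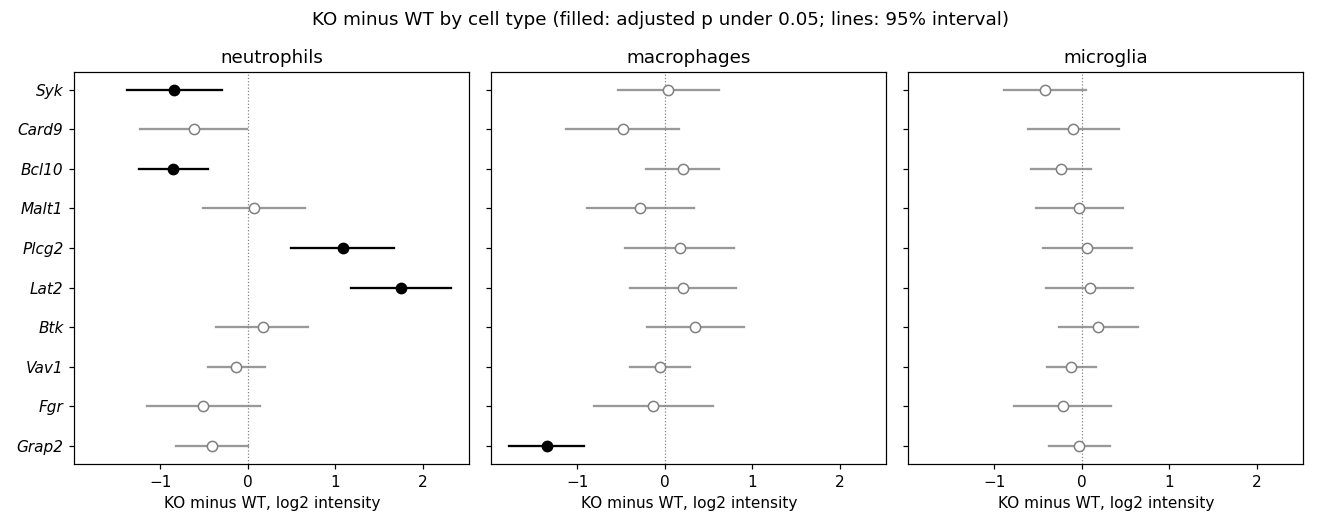
KO minus WT difference in log2 intensity (horizontal axis) for each gene in neutrophils, macrophages and microglia, with the 95% interval as a line and filled points where the adjusted p was under 0.05. The neutrophil panel holds 4 filled points, Grap2 is the filled point at -1.35 in macrophages, and every interval in microglia crosses 0.

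Lat2 encodes a transmembrane adaptor, also called NTAL or LAB, that SYK and SRC-family kinases phosphorylate and that serves myeloid, B and mast cells where T cells use LAT. Its log2 intensity was 12.15, 11.91, 12.13, 12 and 11.35 in the 5 KO neutrophil arrays, against 11.06, 10.23, 10.21 and 9.11 in the 4 WT neutrophil arrays. Every KO array lay above every WT array, and WT neutrophil 4 was the lowest. The mean was 11.91 ± 0.33 in KO (SD, n = 5) and 10.15 ± 0.8 in WT (SD, n = 4), so Lat2 rose by 1.75 (SE 0.28, adjusted p = 8.19e-05, limma), about 3.37-fold. In macrophages Lat2 was 13.07 ± 0.29 in KO (SD, n = 6) and 12.86 ± 0.54 in WT (SD, n = 3), and in microglia 12.77 ± 0.43 in KO and 12.68 ± 0.27 in WT (SD, n = 6 each). The 95% interval of the KO minus WT difference was -0.4 to 0.82 in macrophages and -0.41 to 0.58 in microglia. The KO effect on Lat2 in neutrophils exceeded that in microglia by 1.67 (SE 0.37, adjusted p = 0.00756), where 5.79% of all clusters passed. It exceeded that in macrophages by 1.54 (SE 0.41, adjusted p = 0.0232), where 6.87% of all clusters passed. Both calls ended with the covariate for broadly expressed clusters described further on, at 0.53 against microglia (adjusted p = 0.48) and 0.29 against macrophages (0.823). The macrophage one also ended without WT neutrophil 4 (1.2, adjusted p = 0.0535), WT macrophage 2 (1.52, 0.0504) or WT macrophage 3 (1.29, 0.0902), with only the arrays compared (1.54, 0.0642), and with the replicate number as a block (1.45, 0.0532).

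Plcg2 encodes phospholipase C gamma 2, which makes the messengers that release calcium and activate protein kinase C. In the KO neutrophil arrays Plcg2 read 9.75, 9.58, 9.3, 9.39 and 9.43, against 8.81, 9.11, 9.03 and 6.67 in the WT neutrophil arrays. The groups did not overlap, and WT neutrophil 4 lay far below the other WT arrays. Plcg2 rose by 1.09 in KO neutrophils (SE 0.29, adjusted p = 0.0087, limma), all 5 KO arrays being above the WT mean. Without WT neutrophil 4 the difference was 0.51 (adjusted p = 0.0293), less than the 1.09 of all arrays by more than 1.5 times. With only neutrophil arrays in the model it did not pass (adjusted p = 0.162). In macrophages the level was 11.27 ± 0.19 in KO (SD, n = 6) and 11.1 ± 0.16 in WT (SD, n = 3), and in microglia 11.08 ± 0.15 in KO and 11.02 ± 0.24 in WT (SD, n = 6 each). The difference between the neutrophil and microglia effects was 1.02 (SE 0.38, adjusted p = 0.101), and between the neutrophil and macrophage effects 0.92 (SE 0.42, adjusted p = 0.168), so the Plcg2 change in neutrophils was not shown to differ from that in the other cells, although the difference from microglia passed without WT neutrophil 2 (1.26, adjusted p = 0.0444).

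Bcl10 encodes the caspase-recruitment-domain protein that forms filaments with CARD9 and holds MALT1. Its level was 9.04, 9.51, 9.42, 9.13 and 9.46 in KO neutrophils, against 9.66, 10.24, 10.61 and 10.15 in WT neutrophils. All KO arrays were below all WT arrays, the nearest pair being KO neutrophil 2 and WT neutrophil 1. Bcl10 fell by 0.85 in KO neutrophils (SE 0.19, adjusted p = 0.00258, limma). In macrophages it was 9.8 ± 0.06 in KO (SD, n = 6) and 9.6 ± 0.18 in WT (SD, n = 3), a difference of 0.21 (SE 0.2, adjusted p = 0.998), and in microglia the difference was -0.24 (SE 0.17, adjusted p = 1). The effect in neutrophils was lower than that in macrophages (log2 difference -1.06, SE 0.28, adjusted p = 0.022), a call that ended without WT neutrophil 3 (-0.91, adjusted p = 0.051) or WT macrophage 3 (-0.98, 0.0677), or with that covariate (-0.92, 0.285). Against microglia the difference of effects was -0.61 (adjusted p = 0.142), and it passed without WT neutrophil 1 (-0.78, adjusted p = 0.042).

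Syk, the kinase that binds phosphorylated ITAMs, read 13.23, 13.75, 13.6, 14.1 and 14.93 in KO neutrophils, against 14.82, 14.89, 14.62 and 14.71 in WT neutrophils. The WT arrays lay close together, 4 KO arrays lay below all of them, and KO neutrophil 5 lay above all of them. Syk fell by 0.84 in KO neutrophils (SE 0.27, adjusted p = 0.0265, limma). The Syk call was lost on leaving out WT neutrophil 2 (-0.79, adjusted p = 0.0569), WT neutrophil 4 (-0.85, 0.0518) or KO neutrophil 1 (-0.67, 0.0947), 2 (-0.79, 0.052) or 3 (-0.76, 0.0648). It also ended with arrays centred on their medians (-0.72, adjusted p = 0.0515) and with only neutrophil arrays (-0.84, 0.121). In microglia Syk ran from 10.35 over a median of 10.91 to 11.72 in KO, against 11.01, 11.4 and 11.73 in WT. The groups overlapped there, with 3 KO arrays below the lowest WT array, and Syk differed by -0.42 (SE 0.23, adjusted p = 1). In macrophages the difference was 0.04, with a 95% interval of -0.53 to 0.62. The neutrophil effect minus the macrophage effect was -0.88 (SE 0.39, adjusted p = 0.153, limma), and minus the microglia effect -0.42 (SE 0.35, adjusted p = 0.497). The Syk change in neutrophils was therefore not shown to differ from that in the other cells. Against macrophages it passed with array weights (-1.21, adjusted p = 0.0448) and without KO neutrophil 5 (-1.13, 0.0331).

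With the median level of the 2015 broadly expressed clusters as a covariate, none of the 4 neutrophil calls passed: Lat2 was at 0.55 (adjusted p = 0.287), Plcg2 at 0.33 (0.792), Bcl10 at -0.72 (0.187) and Syk at -0.18 (0.901). All 4 kept their sign. That level was 12.85 to 13.21 in KO neutrophils, against 12.42 to 12.91 in WT neutrophils and 13.26 to 13.49 in the other cells, so the covariate moves with the groups, and Lat2 and Vav1 are themselves among the 2015 clusters. Other marker levels moved with the neutrophil groups too, where 10.7% of all clusters rose and 9.14% fell by limma. Of 12 monocyte and macrophage markers 6 rose and 0 fell in KO neutrophils, and their summed log2 intensity was 17.66 to 18.48 in KO and 17.16 to 17.74 in WT. By sign alone 8 of these 12 were higher in KO, and the others, Ly6c2, Plac8, Chil3 and Vcan, were lower. Chil3 averaged 14.04 in KO and 15.56 in WT neutrophils. Of 11 neutrophil markers 4 fell and 0 rose, with sums of 18.9 to 19.78 in KO and 19.86 to 20.51 in WT. By sign alone all 11 were lower in KO, with a median difference of -0.76. Of 11 microglia markers 2 fell and 0 rose, with sums of 14.89 to 16.13 in KO and 16.06 to 17.33 in WT. By sign alone 6 of these 11 were higher in KO, and their median difference was 0.01, so the list did not move as a whole. Of 10 cartilage and connective tissue markers 5 fell and 0 rose, with sums of 10.85 to 13.53 in KO and 12.76 to 17.95 in WT. All 10 were lower in KO by sign, with a median difference of -1.3. The highest cartilage and microglia sums in WT, 17.95 and 17.33, were those of WT neutrophil 4. The other WT neutrophil arrays reached at most 14.46 and 16.34. WT neutrophil 4 also had the lowest correlation with its group, 0.933, and the most clusters over 3 log2 units dimmer, 204 of the 2015. It was the lowest WT neutrophil array for Lat2, Plcg2, Card9 and Fgr. In each array none of the neutrophil or monocyte and macrophage markers lay below 6.69, against 1 to 2 of the microglia markers in KO and WT alike and 3 to 6 (KO) or 3 to 5 (WT) of the cartilage markers. The part of these markers in the results was not tested.

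**Figure D3:**
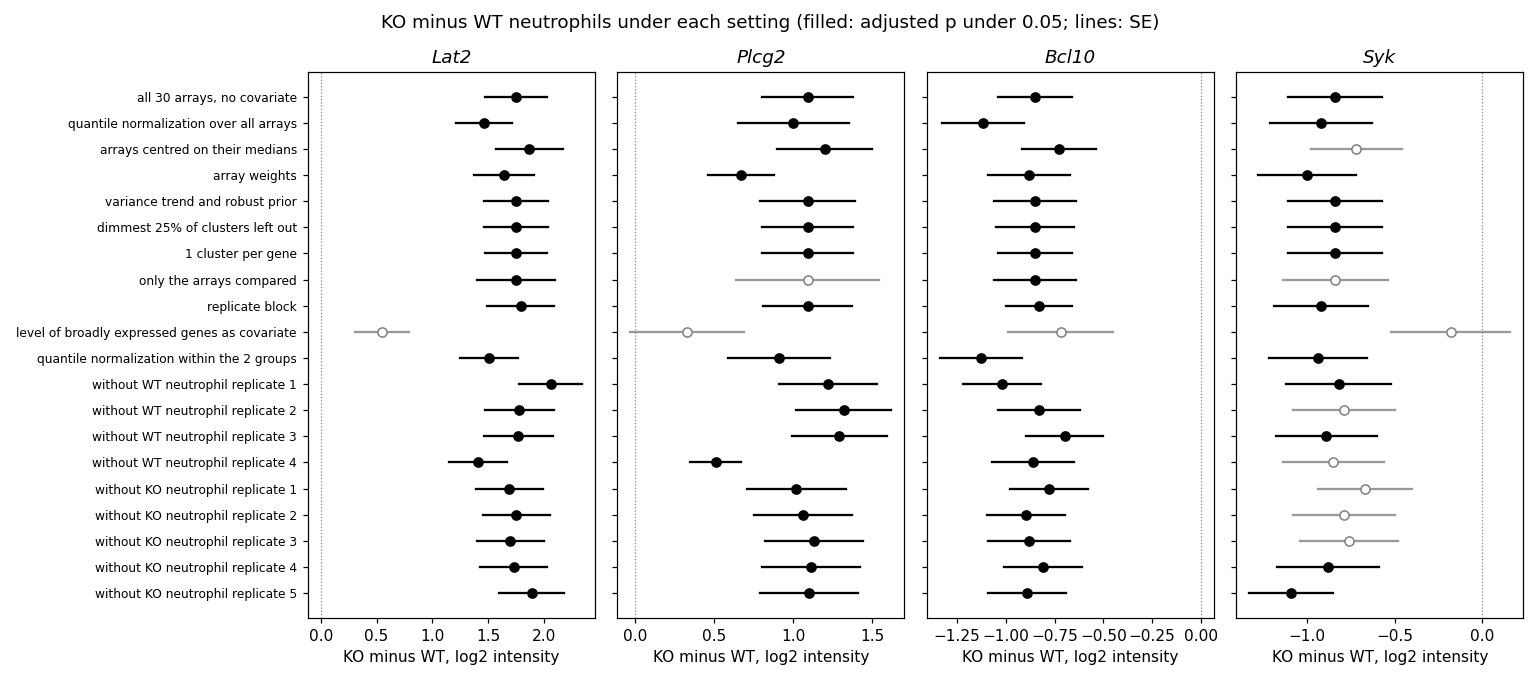
KO minus WT difference in neutrophils in log2 intensity (horizontal axis, one scale per gene) for Lat2, Plcg2, Bcl10 and Syk under each setting (rows), with the SE as a line and filled points where the adjusted p was under 0.05. Lat2 and Bcl10 have 1 open point each, at the covariate for broadly expressed genes, Plcg2 has 2 and Syk has 8.

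Grap2 encodes GADS, an adaptor that links LAT to SLP-76 in T cells. Its log2 intensity was 5.97, 6.43, 6.27, 6.2, 6.57 and 6.64 in KO macrophages, against 7.85, 7.67 and 7.59 in WT macrophages. All 6 KO arrays lay below all 3 WT arrays, and no other array of the series reached the WT macrophage range. Grap2 fell by 1.35 in KO macrophages (SE 0.21, adjusted p = 0.0107, limma), and it was the only cluster of 22103 to pass there. The call rests on WT arrays: without WT macrophage 1 the difference was -1.28 (adjusted p = 0.211) and without WT macrophage 2 it was -1.37 (adjusted p = 0.0684). The KO macrophage levels were all under 6.69, the middle of the 22103 cluster means, and whether they exceed background is not known. In neutrophils Grap2 was 5.89 ± 0.37 in KO (SD, n = 5) and 6.31 ± 0.41 in WT (SD, n = 4), a difference of -0.41 (SE 0.2, adjusted p = 0.141). That difference passed without WT neutrophil 1 (-0.59, adjusted p = 0.0311). In microglia Grap2 was 5.26 ± 0.24 in KO and 5.29 ± 0.27 in WT (SD, n = 6 each). The effect in neutrophils exceeded that in macrophages by 0.94 (SE 0.29, adjusted p = 0.0456), which failed in 13 of the 18 fits that left out 1 array of the 4 groups (adjusted p up to 0.0994). It also failed with the covariate (1.38, adjusted p = 0.0796), with array weights (0.88, 0.0564) and with only the arrays compared (0.94, 0.0937). The difference of effects between macrophages and microglia was -1.32 (SE 0.27, adjusted p = 0.555), in a comparison where 0% of all clusters passed and 3.44% had an unadjusted p under 0.05.

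Because GADS is known mainly from T cells, markers of other blood cells in the macrophage arrays are given beside it. The summed log2 intensity of 8 T cell markers was 8.54 to 8.79 in KO macrophages and 8.68 to 8.87 in WT macrophages, with 7 to 8 and 6 to 8 of them below 6.69. By sign 2 of these 8 markers were higher in KO macrophages and the others lower, with a median difference of -0.09 and 0 passing by limma. The 2 were the T cell receptor subunit genes Cd3e, at 5.1 in KO and 4.92 in WT, and Cd3g, at 3.64 in KO and 3.49 in WT. For 7 NK cell markers the sum was 7.62 to 8.22 in KO macrophages and 11.16, 7.95 and 8.2 in WT macrophages 1, 2 and 3, so 1 WT array stood apart. For 6 platelet and megakaryocyte markers the sum was 15.88 to 17.22 in KO and 14.62 to 16.83 in WT. For 7 mast cell markers it was 12.33 to 12.92 in KO and 11.43 to 12.83 in WT. The macrophage groups did not overlap in the sum of 10 cartilage and connective tissue markers, 12.27 to 13.62 in KO against 10, 9.67 and 11.08 in WT. Of these markers 9 were higher in KO and 0 passed by limma, and the matrix gene Dcn averaged 12.24 in KO and 7.69 in WT macrophages. The sum of 6 neuron markers did not overlap either, at 7.75 to 8.26 in KO and 7.4 to 7.69 in WT. Per array 5 to 6 of these neuron markers in KO and all 6 in WT lay below 6.69, and 0 passed by limma. The part of these markers in the Grap2 difference was not tested.

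The remaining members did not pass between genotypes in any cell type in the model described above. Card9, the adaptor that couples SYK to BCL10 and MALT1, read 7.26, 7.74, 6.95, 8.27 and 8.07 in KO neutrophils, against 8.71, 8.23, 8.78 and 7.41 in WT neutrophils. The groups overlapped, chiefly through the low WT neutrophil 4. Card9 differed by -0.62 (SE 0.3, adjusted p = 0.136), and without that array by -0.91 (adjusted p = 0.0395). It also passed with array weights (-0.92, adjusted p = 0.0447). In macrophages Card9 was 8.07 ± 0.21 in KO (SD, n = 6) and 8.56 ± 0.74 in WT (SD, n = 3), where WT macrophage 2 read 9.4 and the other WT arrays 8.07 and 8.19. In microglia the difference was -0.1 (95% interval -0.62 to 0.43).

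Fgr, a SRC-family kinase of myeloid cells, read 11.43, 12.53, 11.81, 12.65 and 12.54 in KO neutrophils, against 13.15, 13.5, 12.82 and 11.32 in WT neutrophils. Again WT neutrophil 4 was the low array, and all 5 KO arrays lay between it and the other WT arrays. Fgr differed by -0.51 (SE 0.31, adjusted p = 0.257), and without WT neutrophil 4 by -0.97 (adjusted p = 0.0154). It also passed with array weights (-0.9, adjusted p = 0.0396). In macrophages the difference was -0.13 and in microglia -0.22.

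Malt1, the paracaspase that cleaves regulators of NF-kB and of mRNA decay, differed by 0.07, -0.28 and -0.03 in neutrophils, macrophages and microglia, and no 95% interval reached beyond -0.89 or 0.65. Btk, the TEC-family kinase that acts on PLCG2, differed by 0.17, 0.35 and 0.19. Its widest interval was -0.2 to 0.91, in macrophages. Vav1, an exchange factor for RAC GTPases, had the narrowest intervals, -0.45 to 0.2 in neutrophils, -0.4 to 0.29 in macrophages and -0.4 to 0.16 in microglia. Differences of 1 log2 unit in Vav1 lie outside all of them.

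The other genes of the pathway, 99 measured of 110 in 5 lists, were counted in the same comparisons. In KO neutrophils 10 rose and 16 fell, 26.3%, beside 19.9% of all clusters, and in macrophages and microglia 0 passed by limma. Of 18 adaptors and receptors listed with the ITAM step 2 rose and 5 fell, with a median of -0.21. Some of the 18, Hcst among them, do not signal through an ITAM. Trem2, a lipid-sensing receptor, rose by 3.03 (adjusted p = 1.95e-06), with 12.56 to 13.19 in the KO arrays and 8.64 to 11.71 in the WT arrays. Fcgr1, the high-affinity IgG receptor, rose by 1.84 (adjusted p = 2.29e-05). Clec5a, a lectin receptor that signals through DAP12, fell by 1.58 (adjusted p = 5.26e-05), and Hcst, the adaptor DAP10, fell by 1.05 (adjusted p = 0.00223). The groups did not overlap for Trem2, Fcgr1 or Clec5a.

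Of 26 adaptors and effectors beside SYK 1 rose and 4 fell, with a median of -0.22. The 1 that rose was Blnk (SLP-65), the scaffold that joins SYK to BTK and phospholipase C in B cells and macrophages, at 11.55 ± 0.29 in KO (SD, n = 5) and 8.94 ± 1.01 in WT (SD, n = 4), a difference of 2.61 (SE 0.34, adjusted p = 6.83e-06, limma). The GTPase gene Rac2 fell by 0.88 (adjusted p = 0.00152), the kinase gene Prkcd, whose product phosphorylates CARD9, fell by 0.63 (adjusted p = 0.0174), and the docking protein gene Gab2 fell by 0.75 (adjusted p = 0.0332). Of 8 SRC-family and TEC-family kinases 2 rose and 0 fell, Fyn by 0.87 (adjusted p = 0.0157) and Tec by 1.17 (adjusted p = 0.0279), with a median of -0.09. The KO and WT arrays overlapped for both. Tec spread over 8.12 to 10.84 in WT (SD 1.3, n = 4), against 10.67 to 11.79 in KO.

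Of 20 inhibitors of the SYK route 3 rose and 7 fell, with a median of -0.22. Sla, the SRC-like adaptor that lowers receptor signalling, fell by 1.46 (adjusted p = 0.000118), the phosphatase gene Ptpn22 fell by 1.41 (adjusted p = 0.0045) and the adaptor gene Dok3 fell by 1.1 (adjusted p = 0.00562). The ubiquitin ligase gene Cblb rose by 1.55 (adjusted p = 0.000154). Of 27 CARD scaffolds and steps downstream of BCL10 and MALT1 2 rose and 0 fell, Casp8 by 1.02 (adjusted p = 0.00671) and the kinase gene Map3k7, which encodes TAK1, by 0.75 (adjusted p = 0.0231), with a median of -0.07. Casp8 spread over 11.22 to 13.54 in WT (SD 1.03), against 13.56 to 13.98 in KO. All of these are differences in the neutrophil arrays whose marker levels are given above, and the median over all clusters was -0.13. None of these list calls was refitted with the covariate for broadly expressed clusters or without single arrays. With that covariate 474 clusters passed in KO against WT neutrophils, against 4390 without it.

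Between cell types the kinase genes Fgr and Syk were highest in neutrophils and lowest in microglia, Lat2 and Plcg2 were lowest in neutrophils, and Btk and Vav1 passed in no comparison of the model described above. In WT mice 6 of 10 passed in neutrophils against microglia, 5 in macrophages against microglia and 6 in neutrophils against macrophages, where 54.3%, 37.5% and 51.6% of all clusters passed. In KO mice the counts were 8, 5 and 5, where 45%, 43.3% and 31.7% of all clusters passed. These counts lie near the background shares and say little about the members as a set, the farthest being 8 of 10 against 45%. Comparisons within a genotype share arrays with each other, while those of KO and WT mice share none. Of the 6 members that passed in WT neutrophils against microglia, 6 passed in the same direction in KO mice, and of the 5 in macrophages against microglia, 5 did. Of the 6 in neutrophils against macrophages, 4 did and 1, Bcl10, passed in the opposite direction. The share of all clusters that passed alike in both genotypes was not computed, so these counts are not a result about the members as a set.

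**Figure D4:**
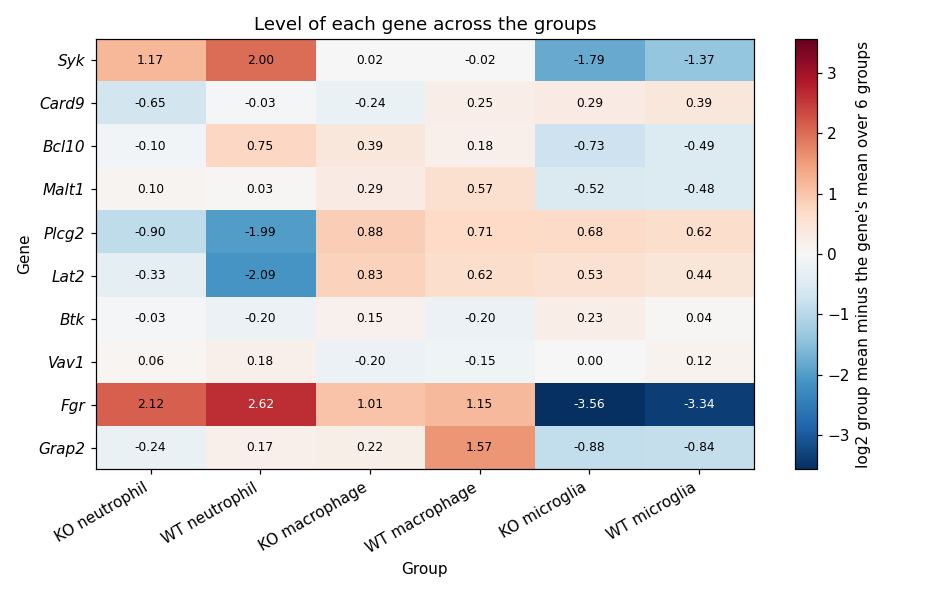
Group mean of log2 intensity minus the gene's mean over the 6 groups (colour and printed value), with genes down the page and groups across. Fgr runs from -3.56 in KO microglia to 2.62 in WT neutrophils, Lat2 and Plcg2 are lowest in WT neutrophils at -2.09 and -1.99, and Btk and Vav1 stay within 0.23 of their means.

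Among the kinases, Fgr had the steepest order. It was 12.19 ± 0.54 in KO neutrophils (SD, n = 5), 11.09 ± 0.33 in KO macrophages (n = 6) and 6.52 ± 0.32 in KO microglia (n = 6), and 12.7 ± 0.96, 11.22 ± 0.25 and 6.74 ± 0.38 in the same WT cells (n = 4, 3 and 6). All 3 steps passed in each genotype. The difference from microglia was 5.67 for KO neutrophils (SE 0.28, adjusted p = 7.15e-16) and 5.96 for WT neutrophils (SE 0.3, adjusted p = 7.6e-16), and 4.57 for KO macrophages (SE 0.27) and 4.48 for WT macrophages (SE 0.33). No neutrophil or macrophage array overlapped a microglia array. The microglia values lie near 6.69, the middle of all cluster means.

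Syk had the same order of cell types in both genotypes, neutrophils above macrophages above microglia. KO neutrophils exceeded KO macrophages by 1.15 (SE 0.24, adjusted p = 0.000547) and WT neutrophils exceeded WT macrophages by 2.03 (SE 0.3, adjusted p = 4.09e-06). KO macrophages exceeded KO microglia by 1.81 (SE 0.23, adjusted p = 1.76e-07) and WT macrophages exceeded WT microglia by 1.35 (SE 0.28, adjusted p = 0.000357). The arrays of neighbouring cell types did not overlap in these comparisons. With the covariate for broadly expressed clusters Syk no longer passed in neutrophils against macrophages, at 0.61 in KO (adjusted p = 0.133) and 0.81 in WT (0.369). Btk did not pass between any 2 cell types in either genotype, with adjusted p from 0.368 to 0.8 in KO and 0.425 to 0.998 in WT, and in WT neutrophils it spread widely, over 10.71, 11.75, 10.95 and 9.71. Without the second of these arrays Btk was lower in WT neutrophils than in WT microglia (-0.56, adjusted p = 0.0405).

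The adaptor Lat2 and the phospholipase Plcg2 were lowest in neutrophils, with their highest means in macrophages, in both genotypes. Lat2 was lower in neutrophils than in microglia with log2 differences of -0.86 in KO (SE 0.26, adjusted p = 0.00699) and -2.53 in WT (SE 0.27, adjusted p = 5.37e-09). The KO difference in Lat2 lost its call with arrays centred on their medians (-0.59, adjusted p = 0.0753) and without KO microglia 2 and 4 (-0.66, 0.0609). With the covariate it turned to 0.15 in KO (adjusted p = 0.608) and was -0.39 in WT (0.45), and against macrophages Lat2 was at -0.18 in KO (0.581) and -0.47 in WT (0.488). For Plcg2 the same differences were -1.59 in KO (SE 0.26, adjusted p = 1.03e-05) and -2.61 in WT (SE 0.28, adjusted p = 3.97e-09), and no neutrophil array reached a macrophage or microglia array. With the covariate Plcg2 was at -0.96 in KO (adjusted p = 0.0153) and -1.28 in WT (0.0678) against microglia, and at -1.17 in KO (0.00694) and -1.31 in WT (0.14) against macrophages. Macrophages against microglia did not pass for Lat2, with adjusted p of 0.334 in KO and 0.673 in WT, or for Plcg2, with 0.557 and 0.849. For Lat2 the KO comparison passed with arrays centred on their medians (0.66, adjusted p = 0.0372). Grap2 had its highest mean in macrophages and its lowest in microglia in both genotypes, though KO neutrophils against KO macrophages lay at the threshold (-0.45, adjusted p = 0.0531) and passed in 7 of 20 alternatives, among them quantile normalization (-0.59, 0.0107) and the covariate (-0.79, 0.0115). KO macrophages exceeded KO microglia by 1.09 (SE 0.17, adjusted p = 5.77e-06) and WT macrophages exceeded WT microglia by 2.41 (SE 0.21, adjusted p = 1.76e-10). Vav1 did not pass between any 2 cell types, with differences from -0.2 to 0.26 in KO and from -0.27 to 0.33 in WT. Neutrophils exceeded macrophages in Vav1 under other settings, by 0.33 in KO with array weights (adjusted p = 0.0401), 0.42 in WT with quantile normalization (0.0402), and 0.6 in KO (0.0101) and 1.12 in WT (0.0151) with the covariate, under which WT neutrophils also exceeded WT microglia (0.82, 0.0302).

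The CARD9 complex did not share 1 order. Card9 was lower in KO neutrophils than in KO microglia (log2 difference -0.94, SE 0.27, adjusted p = 0.00515), while WT neutrophils differed from WT microglia by -0.41 (adjusted p = 0.226). The KO call ended with quantile normalization over all arrays (-0.51, adjusted p = 0.145) and with the covariate (-0.62, 0.169). Bcl10 was higher in neutrophils than in microglia in both genotypes, by 0.63 in KO (SE 0.17, adjusted p = 0.00395) and 1.24 in WT (SE 0.18, adjusted p = 1.67e-06), neither of which passed with the covariate (0.52, 0.0815 in KO and 1, 0.059 in WT). Against macrophages it was lower in KO neutrophils (log2 difference -0.49, SE 0.17, adjusted p = 0.0304), and higher in WT neutrophils, by 0.57 (SE 0.22, adjusted p = 0.0311). Both calls are near the threshold: the KO one ended without KO neutrophil 1 or 4 or KO macrophage 3 (adjusted p 0.0551 to 0.0835), and the WT one in 4 of 7 fits that left out 1 array (adjusted p up to 0.123). The KO call also ended with quantile normalization (-0.24, adjusted p = 0.37), the variance trend (-0.49, 0.0514) and the covariate (-0.6, 0.0657). The WT call also ended with arrays centred on their medians (0.31, adjusted p = 0.247), the variance trend (0.57, 0.0514), only the arrays compared (0.57, 0.118) and the covariate (0.32, 0.701). Malt1 was higher in macrophages than in microglia, by 0.81 in KO (SE 0.24, adjusted p = 0.0082) and 1.05 in WT (SE 0.3, adjusted p = 0.00625). These calls ended without KO microglia 2 and 4 (0.68, adjusted p = 0.053) and without WT macrophage 1 (0.76, 0.0833). Neutrophils lay between. Against microglia Malt1 differed by 0.62 in KO (adjusted p = 0.0496), a call lost in 10 of 21 alternatives, and by 0.51 in WT (0.113), which passed with quantile normalization (1.25, 0.000491) and median centring (0.66, 0.0409). Neutrophils against macrophages did not pass for Malt1 in KO (adjusted p = 0.609) or WT (adjusted p = 0.162), where WT passed without WT macrophage 2 (-0.92, 0.0276) and with median centring (-0.8, 0.0441).

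The genes most like Syk over the 6 group means, each centred on its own mean, were Irf1, a transcription factor of the interferon response, Cd300lf, an inhibitory receptor of myeloid cells, and Arid5a, an RNA-binding regulator of cytokine mRNA. Their root mean square differences from Syk were 0.131, 0.141 and 0.157 log2 units, where Syk itself spanned 3.8. For Card9, which spanned 1.04, the nearest of the 18518 genes compared were Fam133b (0.09), Zfp119a (0.0933) and Stn1 (0.0965). Likeness was measured over 6 points only.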

How the data were processed

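RNA of sorted cells was hybridized to 30 Clariom arrays. The deposited values are linear intensities per transcript cluster, which the authors summarized with RMA (background correction, normalization and probe summary) per the submitters' processing notes. Which arrays were normalized together is not given in the sources used here. RMA draws arrays towards a common distribution, so a shift shared by most genes would not show.

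Intensities (5.62 to 438297, none missing) were log2-transformed here, and 19508 of 22103 clusters carried 1 symbol of the platform annotation. Groups came from the sample labels. A limma 3.58.1 model (R 4.3.3) that gives each group its own mean was fitted to every cluster and array (24 residual degrees of freedom), without a block for the replicate number, and 12 comparisons were each adjusted by Benjamini-Hochberg over all clusters. All limma p-values are two-sided, and the code was tested on simulated data.

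The 10 genes and the pathway and marker lists were chosen with earlier results of these data known. Beside the 10, the text names Trem1, up to 4 passing genes per pathway list by smallest p, and the 3 genes nearest to Syk and to Card9 in their group means, with predicted gene models left out. Cluster brightness cannot be set against background, since no detection values were used here. Figures were drawn with matplotlib 3.10.9 (Python 3.11.15). Alternatives were other normalizations, filters, array sets, array weights, a variance trend, the replicate block and a covariate.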

Additional observations from a re-analysis of the deposited data

Results flagged for a closer look

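Within groups of 4 to 6 arrays, 3 of 50 gene-by-group sets held an array far from the others by Dixon's criterion, which chance meets in about 1 in 20. Bcl10 was 9.92 in KO macrophage 3, against 9.76 to 9.81 in the other KO macrophages. Malt1 was 10.63 in the same array, against 9.81 to 10.1 in the others. Plcg2 was 6.67 in WT neutrophil 4, against 8.81 to 9.11 in the other WT neutrophils.

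For 3 genes the KO effect differed between cell types by a test of the difference itself in limma. For Lat2 the effect in neutrophils minus that in microglia was 1.67 (adjusted p = 0.00756), and minus that in macrophages 1.54 (adjusted p = 0.0232). For Bcl10 the effect in neutrophils minus that in macrophages was -1.06 (adjusted p = 0.022), and for Grap2 it was 0.94 (adjusted p = 0.0456).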

How the results depend on the processing

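Of 2660 values of a member under an alternative, 2548 stayed on their side of the threshold with no called direction turned, 82 lost a call, 29 gained one and 1 reversed. Of the 2548, 141 changed sign while passing in neither setting. Of the 44 calls, 16 held under every alternative run. With array weights, 6 members instead of 4 passed in KO against WT neutrophils, 2 higher and 4 lower. With only the arrays compared, 2 members instead of 4 passed in KO against WT neutrophils (Lat2 and Bcl10) and 1 instead of 3 in the difference between the neutrophil and macrophage effects, and 1084 instead of 4390 clusters passed in KO against WT neutrophils. With the covariate for broadly expressed genes, that cluster count was 474, and 0 members passed in KO against WT neutrophils and in the differences of the neutrophil effect from the macrophage and microglia effects. Under the same covariate 3 members passed in WT neutrophils against WT microglia, 3 in WT neutrophils against WT macrophages and 3 in KO neutrophils against KO microglia, where Lat2 reversed to 0.15 (adjusted p = 0.608). The covariate is lower in neutrophils than in the other cells and so is partly tied to cell type. Leaving out 1 array gave 3 to 5 members in KO against WT neutrophils (2883 to 5557 clusters), 0 to 1 in macrophages and 0 to 0 in microglia. It gave 1 to 2 for the neutrophil minus microglia effects, 0 to 0 for the macrophage minus microglia effects and 0 to 3 for the neutrophil minus macrophage effects. Between cell types it gave 7 to 8, 5 to 6 and 4 to 6 in KO mice and 6 to 7, 4 to 5 and 5 to 7 in WT mice, for neutrophils against microglia, macrophages against microglia and neutrophils against macrophages. Same-numbered KO and WT neutrophils, which come from different mice, had deviations correlated at -0.202 to 0.261. Between cell types of the same genotype the range was -0.0666 to 0.158 in KO and -0.162 to 0.0983 in WT. The highest was in KO neutrophils against KO microglia, where 2 of 5 pairs correlated best with their own number. The numbers were not taken as pairs, and whether same-numbered cell types came from the same mice is not known. With the replicate number as a block, 4 members still passed in KO against WT neutrophils (4340 clusters), 1 in macrophages, 0 in microglia and 2 in the neutrophil minus macrophage effects, where Lat2 was at 1.45 (adjusted p = 0.0532). The causes were not tested. Signals near 6.69, as for Grap2 and for Fgr in microglia, limit what a difference can show.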
